A study of Zea mays with 24 samples.

Results

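Cinnamoyl CoA reductase (MZ00015899), the O-methyltransferase ZRP4 (MZ00017851) and arogenate dehydrogenase (MZ00029584) are 3 of the 43393 gene probes of a maize oligonucleotide array that was hybridised with root RNA of seedlings under a control and a cold regime. They were chosen by their probe IDs from the genes that the study called in the variety PR39B29, with the values of all arrays known, so the values of PR39B29 selected them and are given here without a test. Each of the 3 was measured by 1 spot per array. Cinnamoyl CoA reductase and arogenate dehydrogenase had a value on all 24 arrays and ZRP4 on 21.

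Cinnamoyl CoA reductase reduces hydroxycinnamoyl-CoA esters to aldehydes, the entry step into the monolignols from which lignin is built. ZRP4 is a maize O-methyltransferase known from roots, where it has been linked to the phenolic part of suberin, the barrier polymer of endodermal and peridermal walls. Arogenate dehydrogenase makes tyrosine from arogenate at the end of the shikimate route, and the same arogenate can be turned into phenylalanine. Both amino acids feed phenylpropanoids in grasses, whose phenylalanine ammonia-lyase can also act on tyrosine. Lignin and suberin stiffen and seal root cell walls, and lignin is formed from monolignols by peroxidases and laccases.

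The varieties Picker and PR39B29, described as more chilling tolerant, and Fergus and Codisco, described as less tolerant, were germinated in the dark. The control regime was 18 °C for 16 h with a cooler period at 12 °C, and in the cold regime 16 h at 12 °C alternated with 8 h at 6 °C, so that both regimes lay below the optimum for maize. The labels put sampling at day 8 after germination and the study's methods at the first day, and they also differ in the length of the cooler control period. The 3 loops were hybridised with RNA of separately grown plants and held 8 arrays each. On 4 direct arrays the cold RNA of a variety was paired with its own control RNA, and on 4 linking arrays with the control RNA of another variety (PR39B29 against Codisco, Picker against PR39B29, Fergus against Picker and Codisco against Fergus). Every group therefore had 3 arrays, 1 per loop.

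All values below are log2 ratios of cold over control RNA. The direction was read from the order in which the array titles name the RNAs, and it is likely but not settled. The study subtracts control from treatment and lists these probes as higher in the cold in PR39B29. Under title order their direct means in that variety have the same sign. By the dye labels every array carried its cold RNA in Cy5, and the file header names the ratio Cy5 over Cy3, yet 39 of the 48 within-loop pairings of direct with linking arrays correlated negatively as deposited (median Spearman rho −0.26), so that both kinds cannot run the same way. Under the reading of the header the sign of every direct value is turned and that of every linking value stays. If the dye labels hold, cold RNA was in one dye throughout and a dye effect of a probe is part of each of its ratios. If the dyes followed the title order instead, a dye effect would enter direct and linking ratios with opposite signs. Neither was tested.

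Arrays held values for 18268 to 43108 probes, with SDs of 0.54 to 2.60 across probes. The arrays of replicate 2, the linking array that pairs Picker cold with PR39B29 control and the direct array of PR39B29, agreed in nearly all values as deposited (Pearson r = 0.987 across 22672 probes). The direct array of Codisco replicate 1 followed that of PR39B29 replicate 1 (Spearman rho 0.73) and not those of Codisco replicates 2 and 3 (−0.02 and 0.03). In whole roots, a change in the share of a cell type and a change in the RNA per cell cannot be told apart.

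On all 12 direct arrays cinnamoyl CoA reductase had a ratio above 0. In PR39B29 its log2 ratio was 1.75, 3.07 and 4.23 in replicates 1, 2 and 3, which are 3.37-fold, 8.37-fold and 18.7-fold. In Picker it was 0.13, 1.41 and 1.71, in Fergus 1.38, 2.41 and 1.03, and in Codisco 1.63, 1.66 and 1.00. The means ran from PR39B29 (3.01 ± 1.24, SD, n = 3) through Fergus (1.61 ± 0.72) and Codisco (1.43 ± 0.38) to Picker (1.08 ± 0.84), and each neighbouring pair in this order overlapped. Without replicate 2 the mean of PR39B29 was 2.99.

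Over Picker, Fergus and Codisco, which did not serve to choose the probe, the mean log2 ratio of cinnamoyl CoA reductase was 1.37 (SE 0.30, 95% interval 0.72 to 2.02, n = 9 arrays), and limma on the 9 direct arrays gave an adjusted p of 0.0052. This fit called 25.6% of its 3061 probes higher at an adjusted p below 0.05, so that a call alone did not set the reductase apart. The reductase was among the tested probes through the variance filter over all 24 arrays, which include those of PR39B29 where it was high, and a filter over the 9 direct arrays alone left it out. Without any variance filter limma's adjusted p was 0.00383 among 14264 probes. Of the 14264 probes with a value on all 9 arrays, 7.35% were above 0 on every one, and the reductase was among them. The call was lost without replicate 2 (1.15, limma adjusted p = 0.105) and without replicate 3 (1.44, limma adjusted p = 0.121). Those fits called 245 of 3213 and 1 of 3595 probes, against 1539 of 3061 in the main fit. The loss was thus not particular to the reductase. Without the direct array of Codisco replicate 1 the mean was 1.34 (limma adjusted p = 0.0038), in a fit that called 2282 of 3360 probes.

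**Figure D1:**
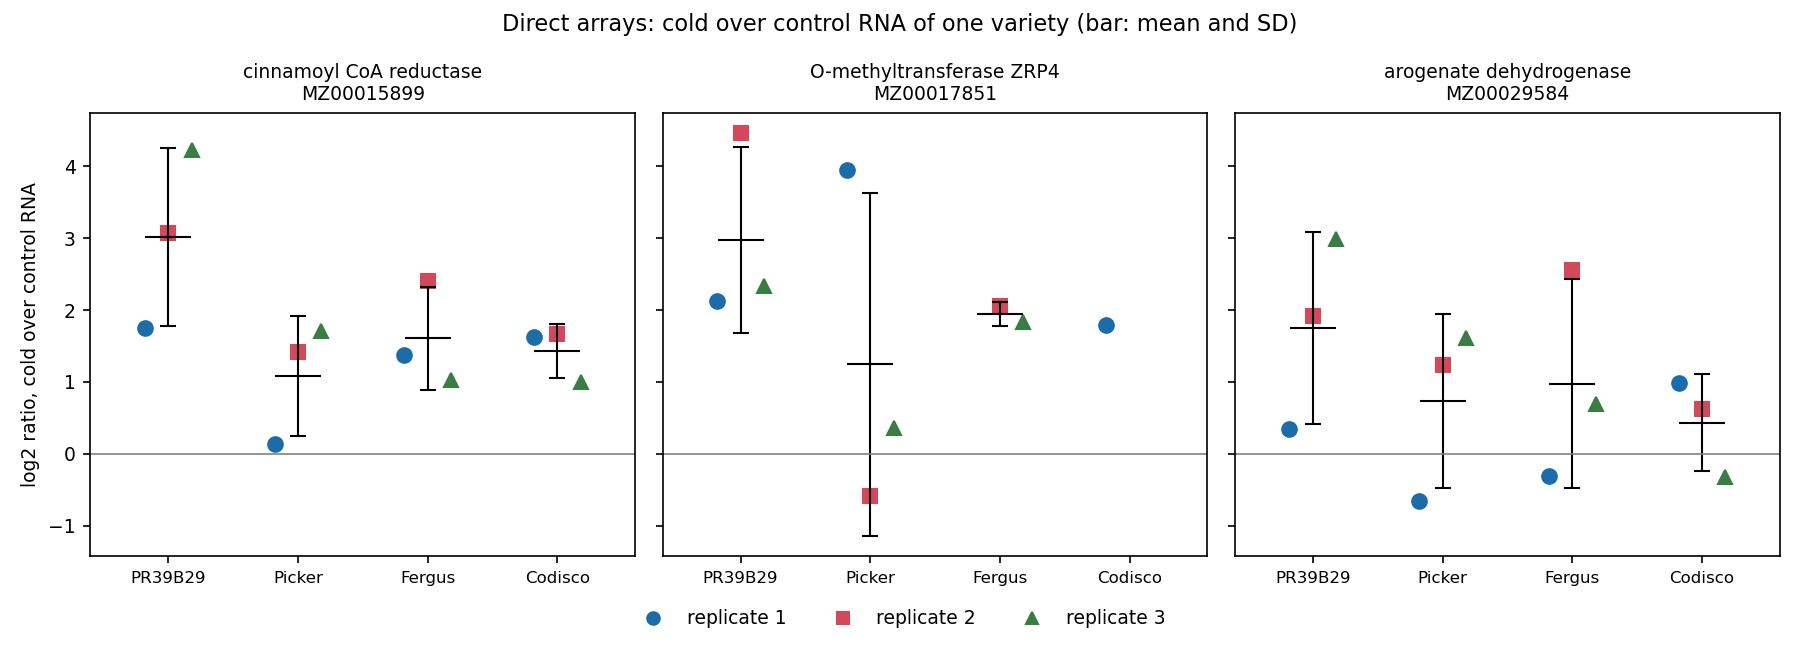
Log2 ratio of cold over control RNA of the 3 probes on the 12 direct arrays, by variety (points: replicates, bars: mean and SD, no bar for 1 value). Cinnamoyl CoA reductase lies above 0 on all 12 arrays, ZRP4 on 8 of its 9 and arogenate dehydrogenase on 9 of 12.

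Tested on its own 3 direct arrays, no variety reached the threshold for cinnamoyl CoA reductase. The adjusted p from limma on 3 direct arrays was 0.109 in Fergus, 0.168 in Picker and 0.349 in Codisco, and unadjusted values were 0.0185, 0.0628 and 0.0563 (limma). These fits called 1.95% of 4706 probes higher in Fergus, 0.114% of 4377 in Picker and 0% of 4610 in Codisco, where 573 probes had an unadjusted p below 0.05. In Picker replicate 1 was the lowest (0.13), and without it the mean was 1.56 (limma adjusted p = 0.0392), in a fit that called 1344 of 4557 probes (482 higher). The moderated F-test of limma for a difference among the 3 varieties gave an adjusted p of 0.978 for the reductase. It called 0% of 3061 probes, with 66 at an unadjusted p below 0.05.

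Relative to the other probes of the same array, cinnamoyl CoA reductase stood between the 98.9th and 99.7th percentile on the 3 direct arrays of PR39B29. On the 9 direct arrays of the other varieties it stood at 92.6 in the median, from 55.9 in Picker replicate 1 to 99.0 in Fergus replicate 2. Counted in units of each array's robust SD, the values of PR39B29 were 3.40, 4.79 and 4.84, and the highest of the others were 3.26 in Codisco replicate 1 and in Fergus replicate 2. On this scale the lowest array of PR39B29 lay only slightly above the highest of the rest, and the share of all probes separated in this way was not computed. As log2 ratio and as percentile, Fergus replicate 2 lay above PR39B29 replicate 1. These values describe the contrast that selected the probe.

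ZRP4, the root O-methyltransferase, had a value on 9 of the 12 direct arrays, and none in Fergus replicate 1 and Codisco replicates 2 and 3. In PR39B29 its log2 ratio was 2.13, 4.46 and 2.33 (2.98 ± 1.29, SD, n = 3), and 2.23 without replicate 2. In Fergus it was 2.06 and 1.83 in replicates 2 and 3, and in Codisco replicate 1, the array that followed PR39B29, it was 1.79. Picker was split, with 3.95, −0.58 and 0.36 in replicates 1, 2 and 3. The 3 values of PR39B29 and the 3 of Fergus and Codisco all lay at or above the 95.4th percentile of their arrays, while those of Picker were at 97.6, 24.4 and 70.5.

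A test of ZRP4 over the 3 other varieties was possible only when 1 value per variety was enough, a setting added after the data were seen. The mean was then 1.66 (SE 0.74, 95% interval −0.17 to 3.49, 6 arrays) and limma's adjusted p was 0.168, while 9.62% of the 9879 probes in this fit were called higher. The interval includes both 0 and the mean of PR39B29, and without Codisco replicate 1 no value of Codisco is left to fit. In Picker alone the mean of 1.24 ± 2.39 (SD, n = 3) did not pass (limma adjusted p = 0.306). It turned to −0.11 without replicate 1 (limma adjusted p = 0.846). The SD of its 3 values in Picker was larger than that of 99.2% of the 17854 probes with 3 values there.

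Arogenate dehydrogenase, the enzyme that forms tyrosine, was higher in the cold on 9 of 12 direct arrays. In PR39B29 its log2 ratio was 0.34, 1.91 and 2.99 (1.74 ± 1.33, SD, n = 3), and 1.66 without replicate 2. In Fergus it was −0.31, 2.55 and 0.69, in Picker −0.65, 1.23 and 1.61, and in Codisco 0.99, 0.62 and −0.32. The order of the means was PR39B29, Fergus (0.98 ± 1.45), Picker (0.73 ± 1.21) and Codisco (0.43 ± 0.67), with an overlap between all varieties and the highest value outside PR39B29 in Fergus replicate 2. Each of the other varieties had 1 array below 0.

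Over Picker, Fergus and Codisco the mean of arogenate dehydrogenase was 0.71 (SE 0.37, 95% interval −0.11 to 1.53, n = 9 arrays) and did not pass (limma adjusted p = 0.123). Its 3 negative values were replicate 1 of Picker, replicate 1 of Fergus and replicate 3 of Codisco. Without replicate 1 the mean was 1.06 and passed (limma adjusted p = 0.0252), in a fit that called 2754 of its 3885 probes (1217 higher). Without replicate 2 the mean was 0.34 (limma adjusted p = 0.62). Without Codisco replicate 1 alone it was 0.62 (limma adjusted p = 0.178). Within single varieties limma's adjusted p was 0.344 in Fergus, 0.36 in Picker and 0.64 in Codisco. Single arrays moved these means: in Picker 0.73 became 1.42 without replicate 1, which passed (limma adjusted p = 0.0454), and 0.29 without replicate 3. The Picker fit without replicate 1 called 1344 of 4557 probes (482 higher). In Fergus 0.98 became 1.62 without replicate 1 and 0.19 without replicate 2, and in Codisco 0.43 became 0.15 without replicate 1 and 0.81 without replicate 3, and none of these passed. The F-test of a difference among the varieties gave 0.984 (limma adjusted p).

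The linking arrays hold the difference between 2 varieties as well as that between the regimes. With PR39B29 cold RNA against Codisco control RNA, cinnamoyl CoA reductase was at 3.65, −0.17 and 7.09, ZRP4 at 3.44, 0.06 and 9.04, and arogenate dehydrogenase at 1.90, −0.07 and 4.85 in replicates 1, 2 and 3. All 3 probes were thus near 0 in replicate 2 and had their highest value of the 24 arrays in replicate 3. Those replicate 3 values stood at the 99.7th, 99.8th and 99.0th percentile of that array.

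With Picker cold RNA against PR39B29 control RNA, the reductase was at 0.45, −3.26 and 1.20, ZRP4 at 3.70, −4.68 and −2.53, and the dehydrogenase at 0.72, −2.24 and 2.95. The lowest of the 24 arrays was replicate 2 here for all 3 probes. This is the array that nearly repeats the direct array of PR39B29 replicate 2, where the values as deposited were −3.07, −4.46 and −1.91. Without it the means of this pair were 0.83, 0.58 and 1.83.

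**Figure D2:**
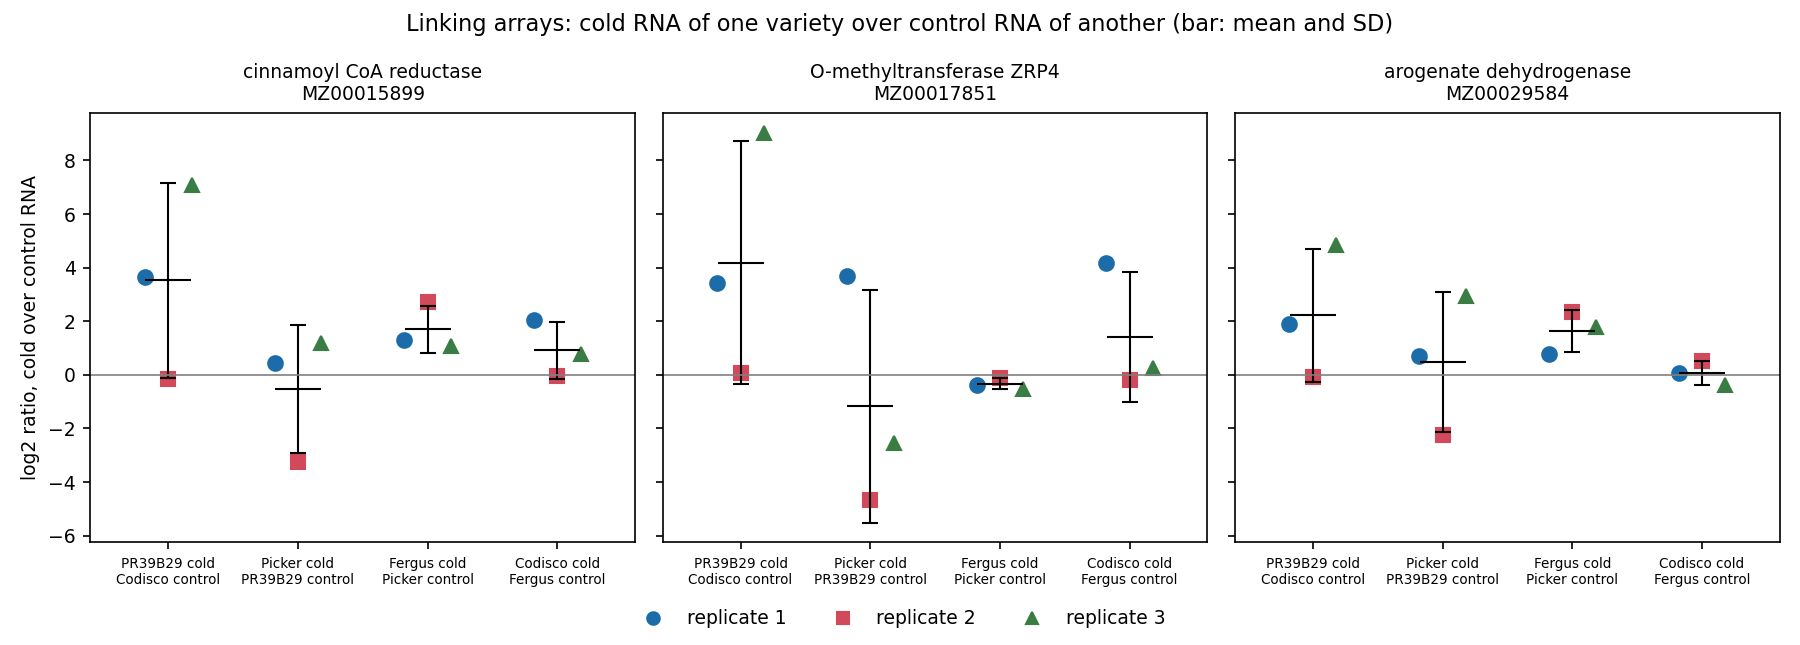
Log2 ratio of cold RNA of one variety over control RNA of another for the 3 probes on the 12 linking arrays (points: replicates, bars: mean and SD). The replicates of the 2 pairs with PR39B29 RNA are far apart, from −4.68 (the array that nearly repeats another) to 9.04 for ZRP4. For ZRP4, Fergus cold against Picker control spans −0.52 to −0.10 and Codisco cold against Fergus control −0.20 to 4.18.

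With all 3 replicates the pairs without PR39B29 RNA were closer together, although ZRP4 had an SD of 2.41 in Codisco against Fergus. The spread of Picker against PR39B29 includes replicate 2, the array that nearly repeats another. Without it the values of that pair were 0.45 and 1.20 for the reductase, 3.70 and −2.53 for ZRP4, and 0.72 and 2.95 for the dehydrogenase. Fergus cold against Picker control gave 1.30, 2.71 and 1.08 for the reductase and 0.78, 2.34 and 1.78 for the dehydrogenase, all above 0. ZRP4 lay slightly below 0 there, at −0.37, −0.10 and −0.52, although its direct values in Fergus were 2.06 and 1.83. Codisco cold against Fergus control gave 2.05, −0.06 and 0.77 for the reductase, 4.18, −0.20 and 0.25 for ZRP4, and 0.05, 0.50 and −0.39 for the dehydrogenase. In all, the reductase and the dehydrogenase were each above 0 on 9 of 12 linking arrays and ZRP4 on 6 of 12.

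The loop design also allows a check of these ratios. Read in title order the 8 ratios of a loop sum to 0 but for error, so that the 4 direct and the 4 linking arrays of a loop should give one mean ratio. For cinnamoyl CoA reductase the direct and linking means were 1.22 and 1.86 in loop 1 and 1.99 and 2.54 in loop 3, but 2.14 and −0.20 in loop 2. That gap of 2.33 was larger than that of 99.3% of the 14615 probes with 8 values in loop 2, whose median absolute gap was 0.41. The gaps in loops 1 and 3 (−0.64 and −0.55, direct minus linking) were larger in size than those of 88.5% and 85.3% of probes. The median absolute gaps there were 0.26 and 0.24, so the reductase closed less well than most probes in every loop. For arogenate dehydrogenase the means were 0.09 and 0.86 in loop 1, 1.58 and 0.13 in loop 2, and 1.24 and 2.30 in loop 3.

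The gap of the dehydrogenase was larger than that of 93.5%, 95.3% and 97.8% of probes in loops 1, 2 and 3, with the linking mean above the direct mean in loops 1 and 3 and below it in loop 2. ZRP4 lacked 1 direct value in each loop, and its means over 3 direct and 4 linking arrays were 2.62 and 2.74, 1.98 and −1.23, and 1.51 and 1.56. In loop 2 the linking mean was the lower one for all 3 probes. The other 7 arrays of that loop would close it with 6.07 for the reductase on the array of Picker cold against PR39B29 control, where −3.26 was measured, and with 3.53 for the dehydrogenase, where −2.24 was measured.

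**Figure D3:**
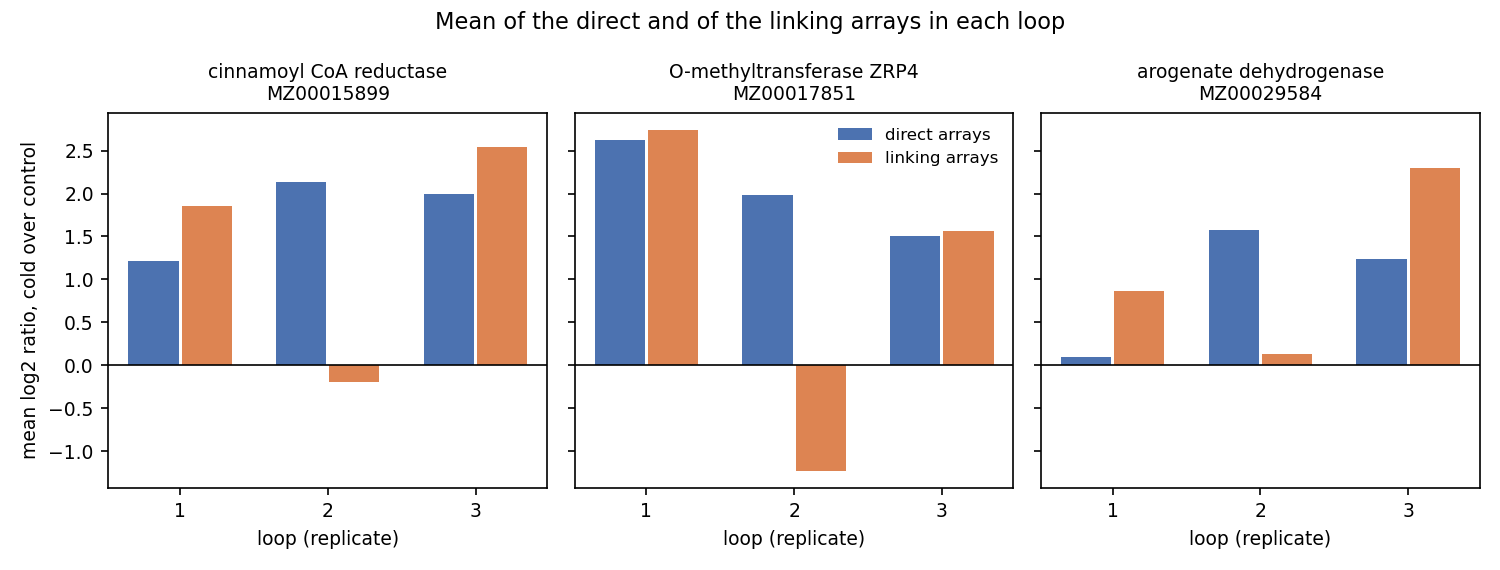
Mean log2 ratio of cold over control of the 4 direct and the 4 linking arrays of each loop (3 direct arrays for ZRP4), 1 bar per kind of array. In loops 1 and 3 both means are above 0 for each probe, and in loop 2 the linking mean is −0.20, −1.23 and 0.13.

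The 8 ratios of a loop were also resolved by least squares into a level for each RNA type, relative to the mean of the 8. The cold RNA of PR39B29 had the highest level of cinnamoyl CoA reductase in every loop, at 1.95, 1.70 and 4.60 (2.75 ± 1.60, SD, n = 3). The mean of the other cold RNAs was 0.58 ± 0.74 in Fergus, 0.28 ± 1.11 in Codisco and −0.42 ± 1.70 in Picker. Among the control RNAs PR39B29 was also the highest in mean, at −0.07 ± 0.15, ahead of Fergus (−0.84 ± 0.82), Codisco (−0.97 ± 1.51) and Picker (−1.31 ± 1.10), but in loop 2 the control RNAs of Codisco (0.70) and Fergus (0.09) lay above it (−0.20). Without loop 2, which holds the array that nearly repeats another, PR39B29 was still the highest at 3.28 in the cold and −0.01 in the control. The order of the others changed, to Picker (0.52), Fergus (0.20) and Codisco (−0.19) in the cold and Picker (−0.69), Fergus (−1.30) and Codisco (−1.80) in the control, so that their order is not settled by these arrays.

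For arogenate dehydrogenase the cold RNA of PR39B29 was at 0.30, 1.33 and 2.68, which was the highest level in loops 2 and 3 and below Fergus cold (0.58) and Fergus control (0.50) in loop 1. Its control RNA was at −0.37 ± 0.49 (SD, n = 3), between those of Fergus (−0.22 ± 0.63) and Codisco (−0.73 ± 1.23), so that the control RNAs of the 4 varieties overlapped. Without loop 2 the cold levels were 1.49 in PR39B29, 0.75 in Picker, 0.64 in Fergus and −0.63 in Codisco. In both probes the level in the cold was above that of the control of the same variety in mean for all 4 varieties, with and without loop 2. For ZRP4 each loop had only 7 ratios, so that its levels have no check within the loop. Its cold level was above the control level in mean in PR39B29 (4.64 and 1.66), Picker (0.49 and −0.75) and Fergus (−1.09 and −3.41), but below it in Codisco (−2.0 and 0.46), where loop 2 gave −4.36 and 6.51 with no direct value. Without loop 2 Codisco was at −0.82 in the cold and −2.57 in the control. The levels of all 3 probes rest partly on the arrays that selected them and were not tested.

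**Figure D4:**
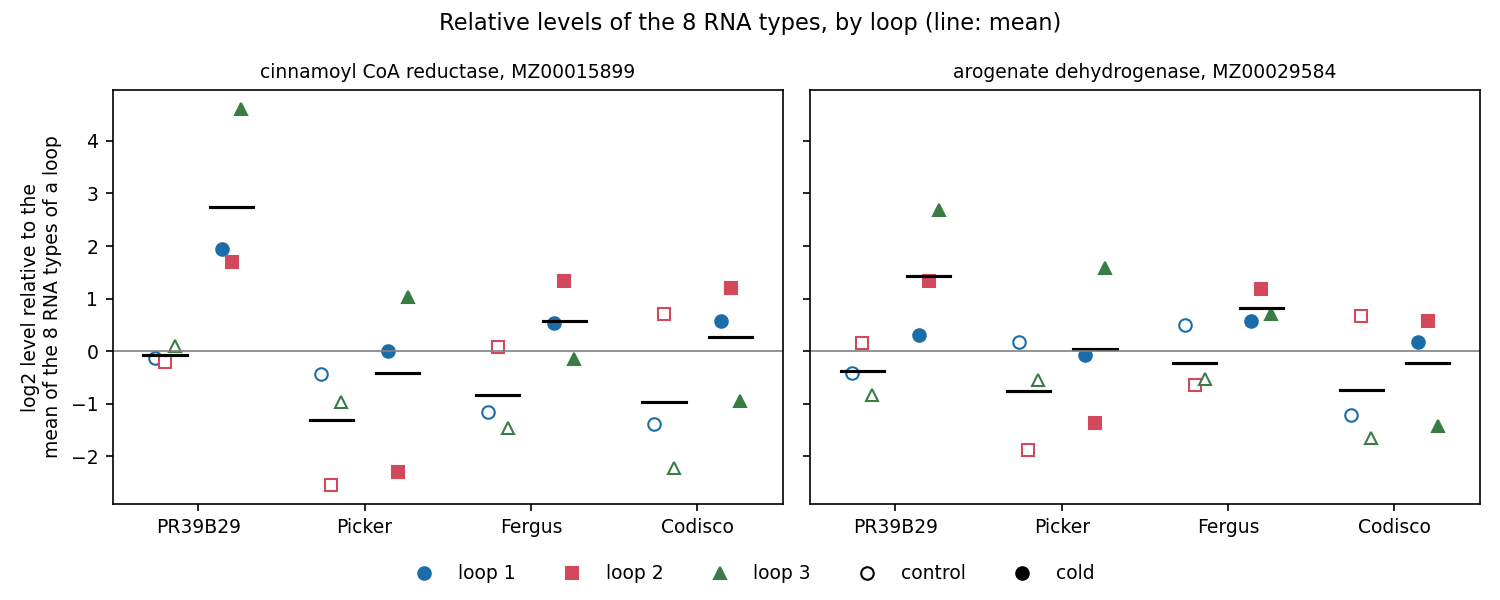
Log2 level of cinnamoyl CoA reductase and arogenate dehydrogenase in the 8 RNA types relative to their mean, by loop (open symbols: control, filled symbols: cold, lines: mean of 3 loops). The PR39B29 cold level of the reductase is the highest in each loop (1.95, 1.70 and 4.60), and the points of loop 2 lie apart in Picker.

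Cinnamoyl CoA reductase and arogenate dehydrogenase moved together from array to array. Across the 24 arrays their ratios had a Pearson r of 0.846 and a Spearman rho of 0.718, with one sign on 19 arrays. These arrays share RNA types and, in each loop, RNA samples, and part of them selected both probes, so that r is a description. Without the 2 arrays farthest from the median of the reductase (7.09 and −3.26) r was 0.662 on 22 arrays. Without the array of Picker cold against PR39B29 control in replicate 2 it was 0.798. It was 0.842 on the 9 direct arrays of the 3 other varieties and 0.644 on the 15 arrays without PR39B29 RNA. The reductase had the higher ratio of the pair on 17 of 24 arrays.

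By Pearson r, ZRP4 was less like the other 2 on the direct arrays. Its r with the reductase was 0.743 on 21 arrays, 0.829 on the 12 linking arrays and 0.133 on its 9 direct arrays. With the dehydrogenase the corresponding values were 0.457, 0.573 and −0.139. Spearman rho with the reductase was 0.483 on the linking and 0.367 on the direct arrays, and with the dehydrogenase 0.133 and 0.033. One sign was shared with the reductase on 8 of 9 direct and 7 of 12 linking arrays. With the dehydrogenase it was shared on 7 of 9 and 5 of 12, so signs did not follow r. The array of Picker replicate 1 showed the contrast most plainly, with 3.95 for ZRP4, 0.13 for the reductase and −0.65 for the dehydrogenase.

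**Figure D5:**
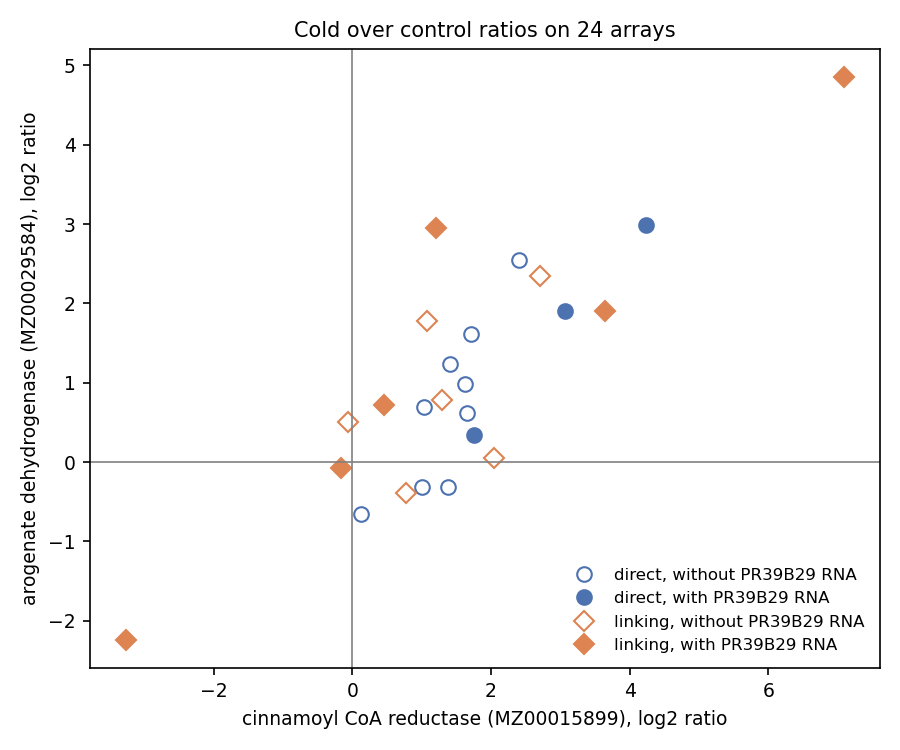
Log2 ratio of arogenate dehydrogenase against that of cinnamoyl CoA reductase on the 24 arrays (circles: direct, diamonds: linking, filled: with PR39B29 RNA). The points run from −3.26 and −2.24 to 7.09 and 4.85, and both probes have one sign on 19 of 24 arrays.

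Among the 9457 other probes with values on all 24 arrays, the profiles most like that of cinnamoyl CoA reductase were MZ00017365 (r = 0.964), MZ00043408 (0.943) and MZ00038829 (0.935), for which the files name no product. Arogenate dehydrogenase came at rank 69 by this measure. For arogenate dehydrogenase itself the most alike were MZ00014397 (0.915), MZ00028920 (0.874) and MZ00043373 (0.863), and the reductase came at rank 10. For ZRP4, over its 21 arrays and 9458 probes, they were MZ00014216 (0.864), MZ00020278 (0.861) and MZ00018211 (0.853), and the reductase came at rank 166. Without the linking array that nearly repeats another, these r were 0.952, 0.940 and 0.926 for the reductase, 0.900, 0.884 and 0.860 for the dehydrogenase and 0.817, 0.817 and 0.801 for ZRP4.

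A list of 19 steps from the shikimate route through phenylpropanoids to lignin was looked up among the products that the study names. It found 4 steps with 6 probes: the 3 enzymes above and 3 peroxidases of the family that polymerises monolignols. The probes are named by transcript clusters, 102 probe names matched a gene symbol of the RefSeq table for the Zm-B73-REFERENCE-NAM-5.0 assembly, and none of the 3 enzymes was among them. That table holds the synonym zrp4 for 2 genes and has separate entries for cncr1 and cncr2, both cinnamoyl CoA reductases, so that no gene model or position is given here and hybridisation of near-identical relatives was not tested. The product of MZ00029584 is named after an Arabidopsis protein.

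The 3 peroxidases did not move as one. MZ00026737, selected in PR39B29 as well, had a mean of 1.77 over Picker, Fergus and Codisco (SE 0.59, limma adjusted p = 0.0287), higher on 7 of 9 direct arrays, and of 1.14 without Codisco replicate 1 (limma adjusted p = 0.0291). The varieties differed, with means of 3.14 in Fergus, 2.23 in Picker and −0.05 in Codisco. In Codisco it was at 3.71 in replicate 1, the array that followed PR39B29, and at −2.91 and −0.97 in replicates 2 and 3. MZ00004711, also selected in PR39B29, was lower on 9 of 9, with a mean of −3.62 (SE 0.68, limma adjusted p = 0.00313). On the direct arrays of PR39B29 it was at 0.52, 0.13 and −1.76, although the study lists it as lower there. The fit behind both calls called 784 of its 3061 probes higher and 755 lower. MZ00026299 was selected in Picker and is given without a test, with −1.63, −1.41 and −4.21 in Fergus and −0.54, −3.98 and −2.08 in Codisco. The r with cinnamoyl CoA reductase over the 24 arrays was 0.708 for MZ00026737 (rank 494 of 9457 probes) and 0.546 for MZ00026299 (rank 1398). Both include the linking array that nearly repeats another. MZ00004711 had a value on only 23 arrays and was not among the probes ranked. The calls of MZ00026737 and MZ00004711 were lost without replicate 3 (limma adjusted p = 0.164 and 0.114), where only 1 of 3595 probes was called. That of MZ00026737 was also lost without replicate 2 (limma adjusted p = 0.0643), without the variance filter (0.0552), with 1 missing array allowed in each variety (0.0524), or with 1 value per variety enough (0.0889).

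Ratios give no level, so the labelled tissue could not be checked by its markers. Of the root products among the study's genes, the root-specific protein RCc3 (MZ00015009) was above 0 on all 12 direct arrays, from 0.58 to 6.66, and root cap protein 2 (MZ00032161) was below 0 on 11 of 12, from −6.82 to 1.08. Ribulose bisphosphate carboxylase (MZ00005992), a photosynthesis enzyme, was below 0 on all 9 direct arrays of Picker, Fergus and Codisco and at −0.92, 1.00 and 1.79 in PR39B29. The study called these probes in Picker, so their Picker values, which are counted above, are among those that selected them. Their part in the ratios of the 3 enzymes was not tested.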

How the data were processed

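Root RNA was hybridised on 24 two-colour arrays of 46128 spots. The authors set background-corrected intensities at or below 0 to a small positive value, normalised within print tips by loess, scaled between arrays and excluded bad spots with CARMAweb, which runs limma (version not given in the sources used here). The deposited values are log2 ratios of both channels per spot (M-values), with no value for 41.8% of gene spots. A second table named the spots, and its 96 columns of single slides match no sample label and were not used.

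Spots of a probe were averaged and direct values multiplied by −1. Probes in the 40% with the largest variance over the 24 arrays (at least 2 values) and a value on each array of a fit were tested with limma 3.58.1 in R 4.3.3, with Benjamini-Hochberg adjustment over all probes tested and a threshold of 0.05. Arrays of PR39B29 and linking arrays entered no main test. Code was tested on simulated data. p-values rest on the spread between arrays. Alternatives were other filters, centring, scaling, missing values, a replicate block, a loop fit (20 or more of 24 values), left-out arrays and the turned sign. Named genes are the 3 enzymes, 3 peroxidases, list members and the 3 most alike probes of each. The members and lists were chosen with earlier results of these data known. The number of arrays limits the precision, and signal over background is unknown.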

Additional observations from a re-analysis of the deposited data

How the results depend on the processing

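The sign of cinnamoyl CoA reductase and arogenate dehydrogenase over Picker, Fergus and Codisco held under each filter, centring, scaling and missing-value setting in which they could be fitted, and turned to −1.37 and −0.71 when the ratio was read as Cy5 over Cy3. Leaving out 1 replicate gave 1.15 to 1.54 and 0.34 to 1.06, and the adjusted p from limma passed for the reductase and for the dehydrogenase only without replicate 1. Over all alternatives limma's adjusted p ran from 0.00342 to 0.121 for the reductase and from 0.0252 to 0.62 for the dehydrogenase. The variance filter over the 9 direct arrays dropped the reductase. Alternatives gave 72 values of the probes in single varieties, with ZRP4 in Picker only, as it lacked direct values in Fergus and Codisco. Of these 72, 67 kept sign and side of the threshold, 4 passed it and 1 turned (ZRP4 in Picker, −0.11 to 2.15 with 1 replicate left out). The cause was not tested.

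Counts of probes called moved more. Over the 3 varieties, 1539 became 3229 with no variance filter, 926 with the filter over the 9 direct arrays and 1 to 2754 with 1 replicate left out (2754 without replicate 1, 245 without replicate 2 and 1 without replicate 3). In Picker 13 became 0 with no filter (3923 at an unadjusted p below 0.05 from limma), 0 with 1 missing array (1237), 2 in one fit of the 9 direct arrays, 2 in the loop fit and 0 to 1344 with 1 replicate left out (1344 without replicate 1). In Fergus 191 became 423 with no filter, 0 with 1 missing array (1878), 96 in the loop fit and 0 to 251 with 1 left out (0 without replicate 2 or 3). In Codisco 0 became 298 in one fit, 326 in the loop fit and 0 to 51 with 1 left out (51 without replicate 2). For the difference among varieties 0 became 7 with the filter over the 9 direct arrays and 1 with 1 missing array. Probes tested differ between these settings.

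Arrays share replicate numbers, and 5 of 9 same-numbered pairs of direct arrays deviated together with r over 0.1 (−0.07 to 0.47). Among these were the pairs of replicate 1 (0.299, 0.462 and 0.469), and 6 of 9 arrays correlated best with an array of their own number. Whether the numbers mark a shared effect is thus not settled. The main fits hold no replicate block, and fits with a block are given beside them. With a replicate block in one fit, calls were 3 in Picker, 524 in Fergus and 1155 in Codisco, and limma's adjusted p of the reductase was 0.0456 in Fergus and 0.0405 in Codisco. For the mean of the 3 varieties the block gave 1959 calls, with adjusted p = 0.00342 for the reductase and 0.0835 for the dehydrogenase.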
